A study of Homo sapiens with 2 samples.

Results

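MAPK feedback genes are transcripts that ERK, the last kinase of the RAS-RAF-MEK-ERK cascade, switches on and whose products restrain or report on the same cascade. All 10 genes were chosen by name: the dual specificity phosphatases DUSP6, DUSP4 and DUSP5, the Sprouty proteins SPRY2 and SPRY4, their relatives SPRED1 and SPRED2, the ETS transcription factors ETV4 and ETV5, and PHLDA1, a pleckstrin homology-like protein. All 10 were found by symbol among the 18930 genes of the deposited table, and all 10 passed the minimum of 10 reads over both libraries. The series holds 2 RNA-seq libraries, 1 with the label DR and 1 with the label WT, and the question asked of the members was how the transcriptional output of ERK stood beside the transcripts of growth factor receptors. In the DR-labelled library, 4 members (SPRY2, DUSP4, DUSP6 and SPRY4) were lower by at least 2-fold, 1 (PHLDA1) was higher by at least 2-fold, and 5 differed by less. Of all 16210 genes tested, 4.16% were lower and 7.48% were higher by at least 2-fold.

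Both libraries were labelled as A375, a melanoma line with a mutated, constantly active BRAF, from skin, grown in DMEM with 10% FBS and given DITC for 105 days. The label is thus the same for the WT-labelled library, which the study describes as the wild-type control, while its DR cells were raised in increasing doses of dacarbazine (DTIC), an alkylating drug. A line is 1 culture here, and no replicate of either group was analysed, so that no test between the conditions could be made. Each count column was tied to its sample by the sample's description, and these descriptions differ by nothing more than 1 character. Every direction below depends on them.

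The estimated counts, rounded, summed to 54878310 reads in the DR-labelled library and 35294629 in the WT-labelled library. The labelled cell type was checked against marker genes. Of 15 melanocyte markers, 13 had counts, and 4 and 5 of them reached 1 CPM (read counts scaled to library size, with TMM normalization) in the DR-labelled and WT-labelled libraries, with summed levels of 45.9 and 46.8 CPM. MITF alone gave 34.6 and 34.7 CPM of these sums. SOX10 had 3 reads and 0 reads, and the latter allows a level of up to 0.0861 CPM. Of 15 plasma cell markers, 15 and 13 reached 1 CPM, with summed levels of 5433 and 6357 CPM, led by JCHAIN at 2012 and 2917 CPM. Of these 15, 5 (TNFRSF13B, DERL3, FCRL5, CD79A and MZB1) were higher by at least 2-fold in the DR-labelled library and 0 were lower. The shares of all genes tested were 7.48% and 4.16%. The other 10 differed by less, and JCHAIN and XBP1 (571.8 and 740.1 CPM) among them were lower. FCRL5 (81 and 14 reads) and CD79A (137 and 32 reads) had few reads. Some plasma cell markers thus differed between the libraries along with the members. TNFRSF13B had 98.9 and 33.0 CPM, and MZB1 had 451.1 and 224.2 CPM. Of 12 fibroblast and keratinocyte markers, 4 reached 1 CPM in each library, with summed levels of 33.4 and 30.6 CPM. The markers go against the label of melanoma cells, so the libraries are named by their labels only. Whether a difference in the kinds of cells sampled takes part in the values below was not tested, and fewer cells of a type and less RNA per cell cannot be told apart in bulk RNA.

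A receptor such as FGFR3 recruits the adaptor FRS2 and, through GRB2 and SOS, loads RAS with GTP. RAS then drives RAF, MEK and ERK, and ERK activates ETS and AP-1 transcription factors. The phosphatases DUSP6, DUSP4 and DUSP5 remove phosphates from ERK, while Sprouty and SPRED proteins act above it, at the level of adaptors, RAS and RAF. In melanoma lines with active BRAF these transcripts serve as a readout of ERK. In plasma cell tumours, FGFR3 can be switched on by a translocation to the immunoglobulin heavy chain locus.

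Bases upstream of the start of transcription are shown for members that differed by at least 2-fold. They are given where the RefSeq promoter table (build GRCh38.p14) has a window. ETS factors are among the nuclear targets of ERK, and whether they regulate these members here was not tested. Windows of 6 members were used, and those of DUSP4, DUSP5, ETV4 and ETV5 were not analysed here. The windows hold the 250 bases before the start, written 5′ to 3′ on the strand of the gene, and lie outside the transcript of that start. Capitals mark GGAAG, a form of the ETS core GGAA, or its complement CTTCC. Other forms of the core were not searched and stand in small letters. For SPRY2, which has 3 listed starts, the window of the most upstream start is given.
DUSP6, chr12:89352502-89352751, minus strand: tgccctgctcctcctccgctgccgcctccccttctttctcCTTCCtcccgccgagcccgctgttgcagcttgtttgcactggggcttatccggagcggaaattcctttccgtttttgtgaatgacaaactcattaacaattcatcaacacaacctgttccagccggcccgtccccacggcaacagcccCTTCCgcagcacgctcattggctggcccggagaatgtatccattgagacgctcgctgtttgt
SPRY2, chr13:80341127-80341376, minus strand: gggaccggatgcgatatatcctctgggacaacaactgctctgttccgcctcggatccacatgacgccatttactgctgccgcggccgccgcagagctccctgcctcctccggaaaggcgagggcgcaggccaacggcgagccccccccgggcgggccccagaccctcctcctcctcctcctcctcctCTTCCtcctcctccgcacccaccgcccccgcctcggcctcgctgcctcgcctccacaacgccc
SPRY4, chr5:142324248-142324497, minus strand: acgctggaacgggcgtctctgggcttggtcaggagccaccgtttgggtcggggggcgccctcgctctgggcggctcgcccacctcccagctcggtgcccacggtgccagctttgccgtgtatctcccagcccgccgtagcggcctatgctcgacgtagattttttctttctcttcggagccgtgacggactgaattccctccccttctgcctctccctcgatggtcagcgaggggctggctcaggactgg
PHLDA1, chr12:76031777-76032026, minus strand: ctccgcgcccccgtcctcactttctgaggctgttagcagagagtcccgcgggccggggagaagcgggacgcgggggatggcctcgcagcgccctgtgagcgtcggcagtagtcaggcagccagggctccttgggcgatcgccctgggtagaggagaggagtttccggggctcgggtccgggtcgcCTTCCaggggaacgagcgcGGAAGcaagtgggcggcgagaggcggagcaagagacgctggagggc

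The searched form of the ETS core stood with its first base 210 and 62 bases before the start in the window of DUSP6. It stood 63 bases before the start in that of SPRY2, and 65 and 46 bases before it in that of PHLDA1. The window of SPRY4 held no GGAAG or CTTCC, though GGAA with another base after it does stand there. Over all 6 members with windows, 8 of 9 windows held the searched form. This form is short, and 65.1% of all 35116 promoter windows of the same length held it on either strand. The letters of an AP-1 site (TGANTCA) stood in 0 of the 9 windows and in 6.57% of all windows, those of a CRE (TGACGTCA) in 0 of 9 and in 1.65%, and those of a CArG box, the binding site of SRF, in 0 of 9 and in 1.16%. Thus the searched form was present upstream of PHLDA1, which was higher in the DR-labelled library, and upstream of DUSP6, which was lower. The matches describe letters in a window only.

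Differences are given as log2 fold changes of the DR-labelled library over the WT-labelled library, on the scale of log2(CPM + 0.5), with 95% Clopper-Pearson intervals that cover read counting only. Of the 16210 genes that passed the read minimum, 7.48% were higher and 4.16% were lower in the DR-labelled library by at least 2-fold. Among the 10 members, the counts were 1 higher and 4 lower. The median log2 fold change of the members was -0.02, beside 0.01 for all genes tested, since members stood on both sides. With 10 genes and 2 libraries, these counts describe the members and do not test them.

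**Figure D1:**
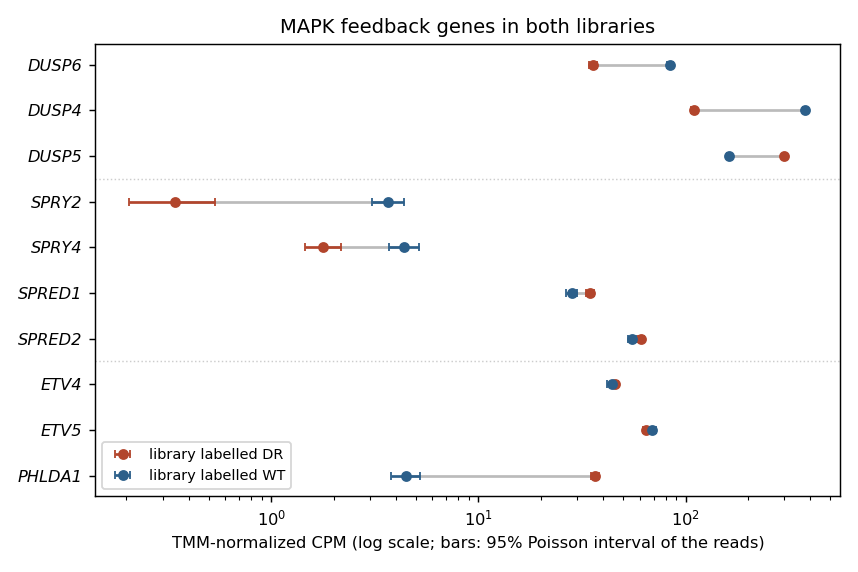
Normalized CPM on a log scale for each member in the DR-labelled library (red) and the WT-labelled library (blue), with 95% Poisson intervals of the reads as bars and a grey line joining both values of a gene. DUSP6, DUSP4, SPRY2 and SPRY4 lie further left in the DR-labelled library, PHLDA1 and DUSP5 further right, and the points of ETV4 nearly coincide at 45.4 and 43.9 CPM.

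The 3 phosphatases stood on both sides. DUSP4, a nuclear phosphatase of ERK and related kinases, had 6080 reads in the DR-labelled library and 13142 in the WT-labelled library, or 109.4 and 377.0 CPM. It was 3.44-fold lower in the DR-labelled library, with a log2 fold change of -1.78 (-1.82 to -1.74), at percentile 1.43 of all genes tested. DUSP6, the cytoplasmic phosphatase with a strong preference for ERK, had 35.9 CPM (1993 reads) and 84.2 CPM (2935 reads). It was 2.35-fold lower, with a log2 fold change of -1.22 (-1.30 to -1.14). DUSP5, the nuclear phosphatase specific for ERK, went the other way, with 299.5 CPM (16640 reads) in the DR-labelled library and 162.2 CPM (5653 reads) in the WT-labelled library. Its log2 fold change of 0.88 (0.84 to 0.93) was 1.85-fold and under the 2-fold threshold, while its counting interval was clear of 0. The DUSP5 difference lay at percentile 91.3 of all genes tested.

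Because genes differ in length, levels of different genes were compared as CPM per kilobase of gene length (RPKM), computed from the lengths in the table. By this measure the order of the phosphatases differed between the libraries. DUSP4 (66.0 RPKM) and DUSP5 (63.7 RPKM) had overlapping counting intervals in the WT-labelled library, whereas in the DR-labelled library DUSP5 stood at 117.7 RPKM and DUSP4 at 19.2 RPKM. The ratio of DUSP5 to DUSP4 in RPKM was 0.966 in the WT-labelled library and 6.14 in the DR-labelled library. Of the summed RPKM of the 3 phosphatases, DUSP5 took 79.8% in the DR-labelled library and 41.2% in the WT-labelled library, DUSP4 took 13.0% and 42.7%, and DUSP6 took 7.17% and 16.1%.

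The Sprouty transcripts had few reads. SPRY2, which dampens receptor signals at the level of adaptors and RAS, had 19 reads in the DR-labelled library and 128 in the WT-labelled library, or 0.342 CPM (95% Poisson interval 0.206 to 0.534) and 3.67 CPM (3.06 to 4.37). It was 10.7-fold lower by CPM alone, and its log2 fold change of -2.31 (-2.62 to -1.94) was less extreme because the pseudocount of 0.5 CPM exceeds the lower level. SPRY4, a relative that restrains the activation of RAS and RAF, had 99 reads (1.78 CPM) and 153 reads (4.39 CPM). Its log2 fold change was -1.10, with an interval of -1.41 to -0.79 that includes the 2-fold threshold. Both Sprouty genes were thus lower in the DR-labelled library beyond counting error, at levels under 5 CPM in either library. Neither reached 2-fold with a pseudocount of 5 CPM, where their log2 fold changes were -0.70 and -0.47.

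SPRED1 and SPRED2, which bring the RAS inactivator neurofibromin to the membrane, did not share this. SPRED1 had 34.5 CPM in the DR-labelled library and 28.2 CPM in the WT-labelled library, with a log2 fold change of 0.29 (0.18 to 0.40). SPRED2 had 60.9 and 55.1 CPM, with a log2 fold change of 0.14 (0.06 to 0.22). Both intervals were clear of 0 and far under the 2-fold threshold. Within the Sprouty and SPRED family, SPRED2 held 74.2% of the summed RPKM in the DR-labelled library and 67.8% in the WT-labelled library, and SPRY2 held 0.795% and 8.61%.

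ETV4 and ETV5, ETS factors of the PEA3 group whose transcription follows FGF and ERK signals, had nearly the same level in both libraries. ETV4 had 2522 reads (45.4 CPM) in the DR-labelled library and 1530 reads (43.9 CPM) in the WT-labelled library. Its log2 fold change was 0.05, with an interval of -0.04 to 0.14 that includes 0. ETV5 had 64.4 and 68.8 CPM, with a log2 fold change of -0.10 (-0.17 to -0.02). These intervals lie well inside the 2-fold thresholds, and they cover counting error but not the spread between cultures.

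PHLDA1, known for its link to growth factor signals and apoptosis, had the largest log2 fold change of the members in size at this pseudocount, while SPRY2 had the larger ratio by CPM alone (10.7-fold against 8.18-fold) and the larger log2 fold change in size at a pseudocount of 0.1 CPM (-3.09). It had 2020 reads (36.4 CPM) in the DR-labelled library and 155 reads (4.45 CPM) in the WT-labelled library, or 8.18-fold more by CPM alone. The log2 fold change was 2.90 (2.68 to 3.12), at percentile 99.3 of all genes tested. By RPKM it was the lowest of the members in the WT-labelled library (0.752, with a counting interval that overlaps that of SPRY4 at 0.857) and stood seventh in the DR-labelled library at 6.15.

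**Figure D2:**
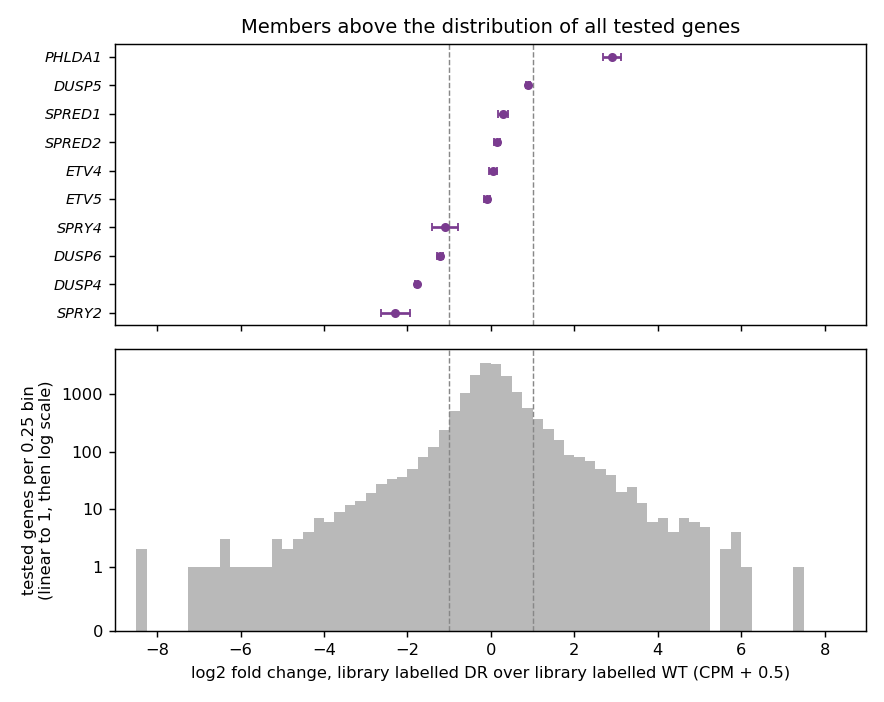
The upper panel gives each member's log2 fold change with its 95% counting interval, and the lower panel counts all 16210 tested genes per bin of 0.25 on the log2 scale, on an axis that is linear to 1 and logarithmic above. Dashed lines mark the 2-fold thresholds, with SPRY2, DUSP4, DUSP6 and SPRY4 left of the lower line and PHLDA1 right of the upper line.

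Summed over the members, the level per length was nearly equal, at 210.0 RPKM in the DR-labelled library and 211.9 RPKM in the WT-labelled library. Without the division by length the sums were further apart, at 688.5 and 831.8 CPM. The makeup differed. DUSP5 took 56.0% of the sum in the DR-labelled library and 30.1% in the WT-labelled library, DUSP4 took 9.12% and 31.1%, and DUSP6 took 5.03% and 11.7%. ETV4 held 10.2% and 9.78%. In the DR-labelled library the order by RPKM ran DUSP5, ETV4, DUSP4, ETV5, SPRED2, DUSP6, PHLDA1, SPRED1, SPRY4 and SPRY2, and the counting intervals of no neighbours in it overlapped. In the WT-labelled library it ran DUSP4, DUSP5, DUSP6, ETV4, ETV5, SPRED2, SPRED1, SPRY2, SPRY4 and PHLDA1, and the intervals of the first pair and of the last pair overlapped.

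**Figure D3:**
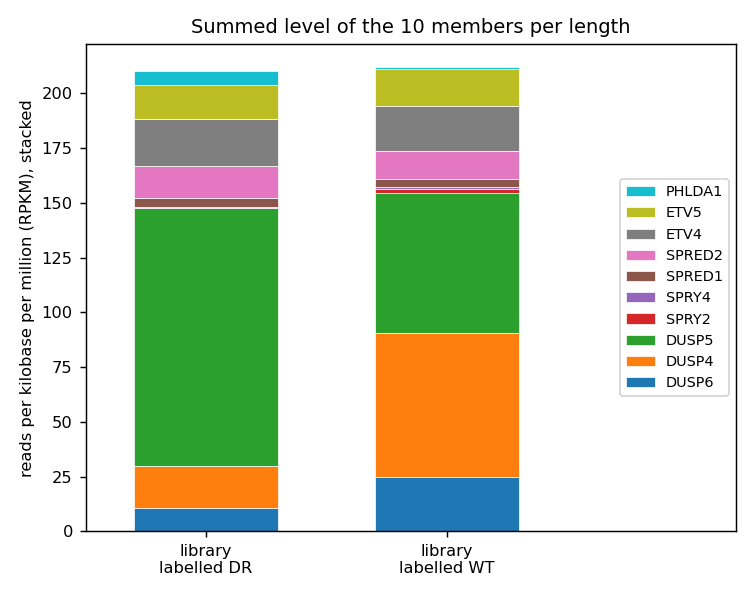
Stacked bars of RPKM, from 0, for the 10 members in each library, without error bars. The bars reach 210.0 and 211.9 RPKM, with DUSP5 as the main part in the DR-labelled library and DUSP4 and DUSP5 as the main parts in the WT-labelled library.

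The members were then set beside the FGF receptors. FGFR3 had 187 reads (3.37 CPM) in the DR-labelled library and 45402 reads (1302 CPM) in the WT-labelled library, a log2 fold change of -8.40 (-8.58 to -8.21). The differences of the members, from -2.31 to 2.90, were all smaller in size. FGFR3 lay at percentile 0.00925 of all genes tested, which ran from -8.41 to 7.29, so nearly any gene would differ less. In the WT-labelled library, FGFR3 had 12.2 times the RPKM of DUSP6, and in the DR-labelled library it had 0.0740 times the RPKM of DUSP6. The other FGF receptors with a kinase domain were higher in the DR-labelled library. FGFR1 had 8.30 CPM there and 2.29 CPM in the WT-labelled library, FGFR2 had 12.1 and 4.68 CPM, and FGFR4 had 17.7 and 6.02 CPM, with log2 fold changes of 1.65, 1.28 and 1.48. Together these 3 receptors had 11.0 RPKM and 3.78 RPKM, so that the sum over all 4 receptors remained 306.4 RPKM in the WT-labelled library and 11.8 RPKM in the DR-labelled library. Of the 8 genes in the list of FGF receptors and co-receptors, 3 were higher by at least 2-fold and 1 was lower, and 1 was higher with a pseudocount of 5 CPM. Over all genes tested, 7.48% were higher and 4.16% were lower by at least 2-fold, and 2.61% were higher with 5 CPM. SDC1, a heparan sulphate carrier that helps FGFs bind, had 368.6 and 565.3 CPM, and FGFRL1, the receptor without a kinase domain, had 30.9 and 58.1 CPM.

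Of 45 other receptor tyrosine kinases, 38 passed the read minimum, 8 were higher and 3 were lower in the DR-labelled library by at least 2-fold, and their median log2 fold change was 0.23. These are 21.1% and 7.89%, beside 7.48% and 4.16% of all genes tested. Many of these genes were low, and the number higher was 14 with a pseudocount of 0.1 CPM and 2 with 5 CPM. Of all genes tested, 10.6% were higher and 5.6% lower with 0.1 CPM, and 2.61% and 2.05% with 5 CPM. EPHB2, an ephrin receptor, had 4.97 CPM in the DR-labelled library and 42.8 CPM in the WT-labelled library (log2 fold change -2.99). ROR2, a WNT receptor, had 15.0 and 1.35 CPM (log2 fold change 3.07). PDGFRB had 209 reads and 1 read, a CPM ratio of 131.1 with a counting interval of 23.3 to 5204, and KIT had 139 and 3 reads, a ratio of 29.1 with an interval of 9.74 to 142.7. By mean RPKM over both libraries the highest of these receptors were DDR1 (12.8 and 11.5), INSR (9.25 and 13.8) and IGF1R (11.4 and 9.67), each under the 2-fold threshold. In the DR-labelled library alone EPHB4 stood above them, at 13.5 RPKM there and 6.66 RPKM in the WT-labelled library, a log2 fold change of 1.01. Of 22 FGF ligands, 10 passed the read minimum, with 2 higher and 2 lower, and 0 in either direction with a pseudocount of 5 CPM. Among them FGF17 had 3.33 and 9.95 CPM, FGF12 had 0.954 and 2.64 CPM, FGF2 had 3.94 and 1.15 CPM, FGF13 had a log2 fold change of 1.16, and FGF9 had 8.21 and 14.0 CPM.

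The cascade between receptor and feedback genes had shares past 2-fold no higher than those of all genes tested (7.48% higher and 4.16% lower). Of 27 genes from FRS2 and GRB2 to the ERK-activated RSK kinases, all passed the read minimum, 0 were higher and 1 was lower by at least 2-fold, and the median log2 fold change was 0.00. At a threshold of 1.5-fold, 5 were higher and 3 were lower, beside 15.1% and 11.2% of all genes tested. The 1 gene past 2-fold was SHC1, an adaptor of receptor tyrosine kinases, with 210.8 CPM in the DR-labelled library and 435.5 CPM in the WT-labelled library. The next largest differences were those of KSR1, a scaffold of RAF and MEK (log2 fold change 0.94), RPS6KA1, which encodes an RSK kinase (0.91), and FRS3 (0.82). MAP2K2 had 173.5 and 128.2 CPM and GRB2 had 191.6 and 166.3 CPM.

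Other genes of the same kinds as the members were described by a list of 17. Of these, 1 (5.88%) was higher and 3 (17.6%) were lower by at least 2-fold, and the median log2 fold change was -0.07. The shares of all genes tested were 7.48% and 4.16%. SPRY1 had 7.24 CPM in the DR-labelled library and 22.2 CPM in the WT-labelled library, a log2 fold change of -1.55. SPRED3 had 2.23 and 5.11 CPM (log2 fold change -1.04), and DUSP1, a nuclear phosphatase induced early by growth factors and stress, had 24.1 and 70.3 CPM (log2 fold change -1.53). PHLDA3, which restrains AKT, had 9.67 and 3.61 CPM (log2 fold change 1.30). DUSP14 (30.4 and 25.6 CPM) and PHLDA2 (16.9 and 12.2 CPM) were, with DUSP1, the genes of this list with the highest mean RPKM over both libraries, and both were under the threshold. Thus SPRY1, SPRY2 and SPRY4 were each lower by at least 2-fold in the DR-labelled library, while SPRY3 had 2.39 and 1.78 CPM. Of the genes that a published MAPK activity score adds to the members, CCND1, which encodes cyclin D1, had 43.8 and 24.7 CPM, EPHA2 had 3.37 and 1.23 CPM and EPHA4 had 0.216 and 1.61 CPM, with log2 fold changes of 0.82, 1.16 and -1.56.

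Immediate early genes, which ERK switches on without new protein synthesis, also stood on both sides. Of 21 genes, 3 were higher and 4 were lower by at least 2-fold, with a median log2 fold change of -0.26. These are 14.3% and 19.0%, beside 7.48% and 4.16% of all genes tested. With a pseudocount of 5 CPM, 1 was higher and 4 were lower, beside 2.61% and 2.05% of all genes tested. FOSB had 1.40 CPM in the DR-labelled library and 134.2 CPM in the WT-labelled library (log2 fold change -6.14), and FOS had 9.86 and 110.3 CPM (log2 fold change -3.42). Both encode subunits of AP-1. KLF4 had 3.11 and 22.8 CPM (log2 fold change -2.69), and IER2 had 41.0 and 94.6 CPM (log2 fold change -1.20). In the other direction, IER3 had 8.89 and 3.16 CPM (log2 fold change 1.36), IER5 had 129.0 and 59.9 CPM (log2 fold change 1.10), and EGR1, a target of ERK through SRF and ETS factors, had 2.68 and 0.889 CPM (log2 fold change 1.20). MYC was the gene with the highest RPKM of this list, at 411.1 and 235.5, with a log2 fold change of 0.80, and MCL1 had 114.2 and 114.4 RPKM. FOS and EGR1, which both respond quickly to ERK, therefore lay on opposite sides, but EGR1 rested on 149 and 31 reads.

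**Figure D4:**
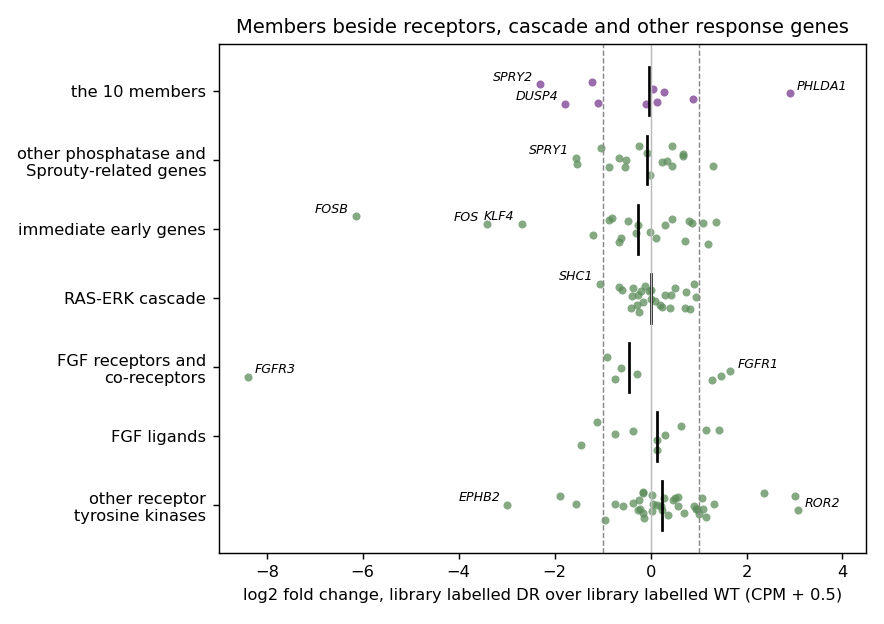
Log2 fold change of every tested gene in 7 lists, 1 row per list and 1 point per gene, with a black bar at the median and dashed lines at the 2-fold thresholds. Points are spread vertically within a row for legibility, and the members span -2.31 to 2.90 while FGFR3 lies at -8.40.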

How the data were processed

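RNA-seq was analysed for a DR-labelled and a WT-labelled library, 1 each. The authors deposited 1 table of 18930 genes with estimated counts per gene, not scaled for library size, and with gene lengths. The submitters' processing notes name Bowtie 0.12.2 and hg19, without giving their roles, and the counting tool and annotation are not given in the sources used here. For 663 genes there was no count. The authors' own ratios, p-values and q-values were not used.

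Counts were fractional for 9108 of 18267 genes, 6 members among them, and were rounded. Scaling used TMM factors from edgeR (1.01 and 0.988), and the 16210 genes whose reads in both libraries summed to 10 or more were compared at a pseudocount of 0.5 CPM. A count model could not be fitted with 1 library per group, so no p-value is given, and a difference compares 2 libraries, not conditions. The intervals (95%, Poisson for levels and Clopper-Pearson for fold changes) cover counting error only, and reads without molecular identifiers are not independent molecules. A count of 0 was read as up to 3 reads, worth 0.0540 and 0.0861 CPM. The steps were tested on simulated data.

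The members and lists were chosen with earlier results of these data known. Besides the members and FGFR1 to FGFR4, genes named are, per list, up to 4 with the largest difference at a mean of at least 1 CPM and up to 3 with the highest mean RPKM. SOX10, FCRL5, EPHB4, SPRY3, EGR1, IER2 and the genes of the closing section were chosen after their values were seen. List genes were matched by symbol, or by NCBI Gene ID where a symbol was not listed. Promoter windows are those of RefSeq (GRCh38.p14), matched by NCBI Gene ID for 6 of 10 members, and hg19 coordinates were not used. Software was R 4.3.3, edgeR 4.0.16, DESeq2 1.42.0, Python 3.11.15, NumPy 2.4.6, SciPy 1.17.1, pandas 2.3.3 and matplotlib 3.10.9. Scaling by DESeq2 or by library totals was tried as well, as were other read minimums, pseudocounts and thresholds.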

Additional observations from a re-analysis of the deposited data

How the results depend on the processing

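No paired analysis was possible because each group had 1 library, and for the same reason no replicate could be left out. The counts of 4 members lower and 1 member higher in the DR-labelled library were the same when scaled by DESeq2 or by library totals, without a read minimum, with at least 50 reads, with a pseudocount of 0.1 CPM, and when the counting interval also had to be clear of 0. Over the 7 settings of scaling, read minimum and pseudocount, 0 of the 10 members changed direction, and the log2 fold changes of DUSP4 (-1.78 to -1.74) and DUSP6 (-1.23 to -1.13) varied little. A pseudocount of 5 CPM left 2 members lower, because it shrinks the differences of low genes: SPRY2 went to -0.70 and SPRY4 to -0.47, and FGFR3 to -7.29. Of the 122 tested genes of the other pathway lists, the 31 past 2-fold then became 14, and 42 with 0.1 CPM. The shares of all genes tested moved as well, to 2.61% higher and 2.05% lower with 5 CPM, and to 10.6% and 5.6% with 0.1 CPM. A threshold of 1.5-fold added DUSP5 to the members higher (2) and took the other lists to 61 genes, while 15.1% and 11.2% of all genes tested were then higher and lower. SPRY2 depended most on the pseudocount, at -3.09 with 0.1 CPM. Depth limits SPRY2 and SPRY4, which rest on 19 to 153 reads a library. The spread between cultures was not measured.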

Other observations

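The table's own Gene Ontology terms hold further genes around ERK, and those named here were chosen after their values were seen. The counts below stand beside shares of 7.48% higher and 4.16% lower over all genes tested. Of 21 genes with the term negative regulation of ERK1 and ERK2 cascade, all passed the read minimum, and 3 were higher and 5 were lower in the DR-labelled library by at least 2-fold, DUSP6 and SPRY2 among the latter. Without those members, 3 of 19 were higher and 3 were lower. CNKSR3, a connector enhancer of the kinase suppressor of RAS, had 13.0 CPM in the DR-labelled library and 1.26 CPM in the WT-labelled library, and IGF1, the ligand of IGF1R, had 28.3 and 5.56 CPM. Of 72 tested genes with the term positive regulation of ERK1 and ERK2 cascade, 15 (20.8%) were higher and 5 (6.94%) were lower, FGFR3 and SPRY2 among the latter. The chemokine CCL3 had 246.5 and 23.2 CPM, and NPNT, a matrix ligand of integrins, had 53.1 and 0.373 CPM. Large differences in the other direction were present too. DCC, of the positive regulation term, had 0.558 and 17.2 CPM, and KLF4, of the negative regulation term, had 3.11 and 22.8 CPM.

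Of 26 tested genes with the term MAPK cascade, which holds none of the members, 7 (26.9%) were higher and 0 were lower by at least 2-fold. RASGRP3, which loads RAS with GTP in lymphocytes, had 67.3 CPM in the DR-labelled library and 12.7 CPM in the WT-labelled library. Of 102 tested genes with the term fibroblast growth factor receptor signaling pathway, 9 were higher and 5 were lower, and the median log2 fold change was 0.01. These shares, 8.82% and 4.90%, were near those of all genes tested (7.48% and 4.16%). This term also holds none of the members. Its log2 fold changes ran from -1.95 to 1.88, so FGFR3 (log2 fold change -8.40) is not among its tested genes. The terms overlap and were not tested against other genes.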
